A study of Mus musculus with 12 samples.

Results

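The 5 *Trim* genes described here, *Trim21*, *Trim68*, *Trim6*, *Trim34a* and *Trim30a*, lie between class I odorant receptor (OR) genes in the class I cluster on mouse chromosome 7. Each was taken as the probe set whose only gene symbol in the platform annotation is that gene, which gave 5 of the 35556 probe sets on the array. They were chosen by symbol and position, not by their levels, although earlier results of these data were known. The main olfactory epithelium (MOE), the sensory lining of the nose, was compared between 6 mice homozygous for a deletion of the J element (ΔJ), an enhancer inside the cluster, and 6 wild-type mice. Each mouse had 1 array (Affymetrix Mouse Gene 1.0 ST). The comparison addressed whether genes other than OR genes, placed among receptors that the enhancer serves, changed with its loss.

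Of the ΔJ mice 3 were male and 3 female. Among the wild-type mice 2 were male and 4 female. Mice were at postnatal day 30 (P30), apart from 1 ΔJ and 2 wild-type mice at P33. The labels name no treatment. Per the study's methods the ΔJ mice came from 1 line, founded by 1 mouse made in B6C3F1 fertilized eggs and crossed to C57BL/6NCrSlc, with heterozygotes of the second backcross used for the array experiment, whereas the labels give the strain of both groups as C57BL/6. The wild-type mice were littermates, but which mice shared a litter is not given. Sequence around the deletion that stayed linked to it, including strain differences in the *Trim* genes, cannot be told apart from the deletion itself.

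TRIM proteins carry a RING domain, 1 or more B-boxes and a coiled coil, and many end in a PRY-SPRY domain that binds the target. The RING domain recruits a ubiquitin-conjugating enzyme, so that most family members act as ubiquitin ligases, and many of them work in antiviral defence and are themselves induced by interferon. Class I OR genes, by contrast, are each transcribed in a small share of olfactory sensory neurons (OSNs), which choose a single receptor gene.

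*Trim21* encodes a cytosolic receptor for antibody on incoming virus. The gene lies 0.0472 Mb from the middle of the deleted element, at chr7:102557920-102565482 (GRCm38.p6), with *Olfr549* 2.68 kb to one side. *Trim68*, a ubiquitin ligase gene, lies 0.167 Mb away at chr7:102677579-102687335. The other 3 sit together far from the element with no intact class I probe set between them. *Trim6*, whose product builds unanchored ubiquitin chains that activate the kinase IKKε in interferon signalling, is at chr7:104218795-104235152, 1.71 Mb away. *Trim34a*, a relative of the retrovirus restriction factor gene *Trim5*, is at chr7:104244448-104262244, 1.73 Mb away. *Trim30a*, whose product restrains NF-κB signalling by promoting the loss of TAB2 and TAB3, is at chr7:104409025-104465193, 1.90 Mb away. Related genes such as *Trim30b*, *Trim30c*, *Trim30d*, *Trim12a*, *Trim12c*, *Trim5* and *Trim34b* belong to the same group of genes. Whether the probes of *Trim34a* and *Trim30a* also bind transcripts of these genes was not examined.

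The promoters of 3 of the 5 genes held the letters GAAA, then 2 bases of any kind, then GAAA again, the core of the interferon-stimulated response element, on either strand within a window from 250 bases before to 50 bases after a transcript start (RefSeq, GRCm38.p6). The 30 bases around each match are shown because these 3 promoters separate the genes by a feature that no array value entered, with the match in capitals and each run written 5′ to 3′ on the strand of the gene.

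*Trim21*, chr7:102565447-102565476, minus strand: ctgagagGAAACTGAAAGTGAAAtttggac

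*Trim34a*, chr7:104244457-104244486, plus strand: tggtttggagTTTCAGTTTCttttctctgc

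*Trim30a*, first start, chr7:104465210-104465239, minus strand: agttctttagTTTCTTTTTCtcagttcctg

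*Trim30a*, second start, chr7:104446104-104446133, minus strand: ttgtttttagTTTCTTTTTCtcagttcctg

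The *Trim21* run holds 2 overlapping matches, both in the forward reading, whereas the runs of *Trim34a* and *Trim30a* hold the reverse complement. The runs at both *Trim30a* starts had 26 of 30 bases in common, and the first was identical at 30 of 30 bases to the matching stretch of *Trim30d*. Of the other *Trim* genes of the cluster, only those whose probe set has a single symbol are described here. All 3 of them with a promoter sequence available, *Trim12a*, *Trim12c* and *Trim30d*, held a match too. No match lay in the windows of *Trim68* and *Trim6*, which says only that these letters are absent from those windows. Among all promoters 1131 of 32851 (3.44%) held a match, and by gene the share was 3.99%. It was 45.2% among 31 genes of the interferon-stimulated list used below and 4.72% among 106 intact class I genes. A match is a description of sequence and does not show that a factor binds there.

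Levels are log2 signals after the 75th percentile of each array was subtracted, so 0 is the signal that 75% of probe sets on that array lie below. Levels of different probe sets are not comparable with each other. The 75th percentile before subtraction was 8.38 to 8.56, and the spread of log2 values across probe sets (SD) was 2.07 to 2.13 in replicates 1 to 3 and 2.20 to 2.23 in replicates 4 to 6 of both genotypes. These sets of replicates are therefore also given separately. The labels do not say what separates them. The mature OSN markers averaged 3.15 to 3.25 in wild-type and 2.98 to 3.24 in ΔJ mice, and the sustentacular cell markers 3.72 to 3.78 and 3.70 to 3.79, so the defining transcripts of the MOE were strong on every array. ΔJ replicate 4 had the highest means of the immune and interferon-stimulated lists, as described below, and results that rest on it are given without it. Wild-type replicate 3 was the highest of the 12 mice in 25.9% of all probe sets and ΔJ replicate 5 in 16.7%, and ΔJ replicate 5 had the lowest means of the mature OSN (2.98) and basal cell markers (-0.36, against -0.22 to -0.01 in the other mice). Without wild-type replicate 3 the log2 differences of *Trim68* and *Trim6* were -0.15 and -0.15, and without ΔJ replicate 5 they were -0.17 and -0.16.

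*Trim21*, the member closest to the deleted enhancer, ranged from -1.84 to -1.42 with a median of -1.56 in wild-type mice and from -1.68 to -1.12 with a median of -1.48 in ΔJ mice. The groups overlapped, and the highest value of all was that of ΔJ replicate 4. The mean was -1.58 ± 0.15 in wild-type and -1.47 ± 0.20 in ΔJ mice (SD, n = 6 each), a log2 difference of 0.11 with a 95% confidence interval from -0.11 to 0.33 (limma, Benjamini-Hochberg adjusted p = 0.993). On the linear scale ΔJ mice were at 108% of wild-type, with an interval from 92.9% to 126%. The log2 difference was -0.04 within replicates 1 to 3, 0.26 within replicates 4 to 6, and 0.04 without ΔJ replicate 4.

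*Trim68* lay lower in most ΔJ mice. Wild-type levels ran from -1.31 to -0.93 with a median of -1.10, and ΔJ levels from -1.43 to -1.14 with a median of -1.28, so that the groups still overlapped. Means were -1.09 ± 0.14 and -1.27 ± 0.12, and the log2 difference was -0.18 (SE 0.08, 95% interval -0.35 to -0.01), which left ΔJ mice at 88.5% of wild-type (78.6% to 99.6%). The unadjusted p was 0.0435 and the adjusted p 0.993 in limma. The difference had the same sign in both sets of replicates, -0.16 and -0.20.

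*Trim6* gave a similar picture at a weak signal. Its wild-type levels ran from -3.39 to -3.02 with a median of -3.27, and its ΔJ levels from -3.57 to -3.24 with a median of -3.46. The overlap was partial, with 3 ΔJ mice below every wild-type mouse. Means were -3.24 ± 0.14 and -3.43 ± 0.15, a log2 difference of -0.19 (SE 0.08, 95% interval -0.37 to -0.01), or 87.7% of wild-type (77.2% to 99.6%), with an unadjusted p of 0.0447 and an adjusted p of 0.993 in limma. As a gauge of background, *Kdm5d*, a gene on the Y chromosome, read -4.23 to -3.05 in the 7 females, with a mean of -3.72, and the *Trim6* levels lay within or just above that range. Levels of different probe sets are not comparable, so this gauge is rough. Where a signal is near background, a change in the transcript can be understated. Within the sets of replicates the difference was -0.15 and -0.23.

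*Trim34a* ran from -2.27 to -1.90 with a median of -1.97 in wild-type mice and from -2.14 to -1.85 with a median of -2.05 in ΔJ mice. The groups overlapped almost wholly. The log2 difference was -0.02 (95% interval -0.18 to 0.15, limma adjusted p = 0.996), or 98.9% of wild-type with an interval from 88.0% to 111%. Its sign turned with the scaling of the arrays, being 0.03 after subtraction of the median or after quantile normalization.

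*Trim30a* varied most among the ΔJ mice. Wild-type levels ran from -1.94 to -1.46 with a median of -1.75, and ΔJ levels from -1.94 to -1.04 with a median of -1.83. A single mouse, ΔJ replicate 4, lay above all others, and the remaining ΔJ mice lay within the wild-type range. Means were -1.75 ± 0.19 and -1.71 ± 0.34, a log2 difference of 0.04 (95% interval -0.28 to 0.36, limma adjusted p = 0.994), or 103% of wild-type (82.3% to 128%). Without ΔJ replicate 4 the difference was -0.09.

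**Figure D1:**
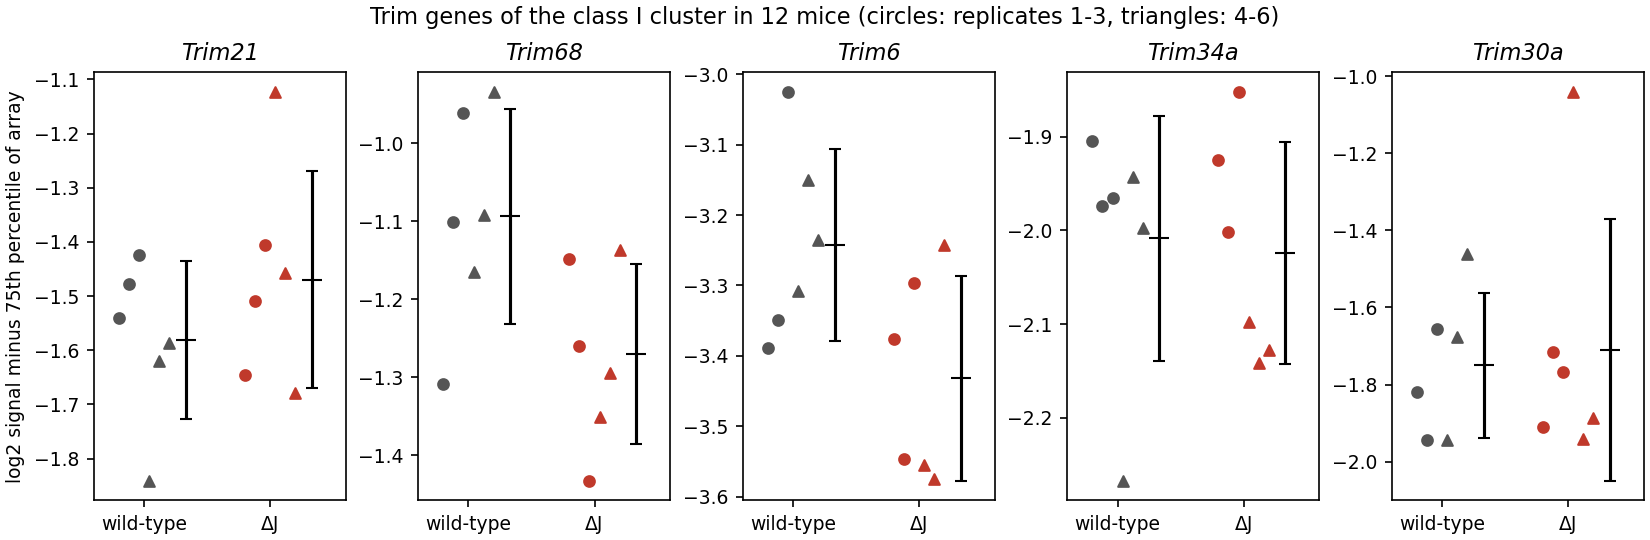
Log2 level (signal minus the 75th percentile of the array) of each *Trim* gene in every mouse, wild-type in grey and ΔJ in red, with circles for replicates 1 to 3, triangles for replicates 4 to 6, and bars for the mean ± SD (n = 6 per group). Each panel has its own scale, the groups overlap in every panel, and ΔJ replicate 4 is the highest point for *Trim21* (-1.12) and *Trim30a* (-1.04).

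None of the 5 genes passed limma at an adjusted p under 0.05, a threshold that 0.135% of all 35556 probe sets passed, and none had groups that did not overlap, as 0.301% of all probe sets had. At an unadjusted p under 0.05, 2 of the 5 were lower and 0 higher, against 2.16% and 1.18% of all probe sets. With the replicate number as a block 0 of the 5 passed as well, beside 0.143% of all probe sets. The median log2 difference of the 5 was -0.02, beside -0.03 over all probe sets, of which 21398 were negative. A miss of the threshold does not show that levels were equal, and the interval of *Trim68* reached down to 78.6% of wild-type. The interval of *Trim6* covers the signal of a dim probe set and may set no limit on the change in its transcript. Since the MOE is a mixed tissue, fewer cells with a transcript and less transcript per cell cannot be told apart.

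The other *Trim* genes of the cluster with a probe set of a single symbol gave the same count. *Trim12a* differed by 0.12 (95% interval -0.14 to 0.37), *Trim12c* by 0.02 (-0.19 to 0.24), *Trim30d* by -0.01 (-0.25 to 0.22) and the pseudogene *Trim30e-ps1*, whose levels of -4.86 to -4.20 lay near or below the *Kdm5d* gauge, by 0.02. None of these 4 passed even at an unadjusted p under 0.05 in limma. Of all 59 probe sets of a single *Trim* gene on the array 0 passed after adjustment, 3 were lower at an unadjusted p under 0.05 and 1 was higher. The lower ones were *Trim68*, *Trim6* and *Trim50* (-0.21), and the higher one was *Trim36* (0.18). The median over 50 such probe sets outside the cluster was -0.03. Another 10 probe sets of single genes inside the cluster that are neither OR nor *Trim* genes had a median of -0.08, and 0 of them passed.

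The class I receptors beside the *Trim* genes are given for comparison. Their fall in ΔJ mice was known when they were chosen, so their values are a description. The nearest 2 intact class I probe sets on each side of each *Trim* gene made 12 in all, since *Trim6*, *Trim34a* and *Trim30a* share theirs. Not all of these lie close to the gene. *Olfr651*, the nearest on the side away from the element, is 318 kb from *Trim6* and 291 kb from *Trim34a*. *Olfr649*, the nearest on the side toward the element, is 219 kb from *Trim30a*. Of the 12, 7 had an adjusted p under 0.05 and a level lower by more than 1.3-fold, as had 0.129% of all probe sets, and 8 did not overlap between the groups, as had 0.259%. All 12 differences were negative, with a median of -0.53. The number was 4 without wild-type replicate 1 or without wild-type replicate 3, and 8 when the 1213 OR probe sets alone were fitted, of which 6.18% met the same criterion.

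*Olfr549*, on the side of *Trim21* toward the deleted element, ran from -0.90 to -0.22 in wild-type and from -1.81 to -1.36 in ΔJ mice, a fall by 0.93 on the log2 scale to 52.5% of wild-type (44.2% to 62.4%, limma adjusted p = 0.00370). *Olfr550* and *Olfr551* on the other side fell to 67.9% (adjusted p = 0.0142) and 51.2% (adjusted p = 0.0245). *Trim21* thus lay between receptors whose groups did not overlap. *Olfr547*, between *Olfr549* and the element, read -4.92 to -4.40 over all 12 mice, below the *Kdm5d* gauge, and differed by -0.04. The ΔJ levels of *Olfr551*, -3.59 to -2.73, reached into the range of that gauge, where a fall can be understated.

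Around *Trim68*, *Olfr555* fell to 62.2% of wild-type (limma adjusted p = 0.00145), *Olfr557* to 58.6% (adjusted p = 0.00370) and *Olfr558* to 72.0% (adjusted p = 0.0258). The ΔJ levels of *Olfr555*, -3.26 to -2.94, reached into the range of the *Kdm5d* gauge too. *Olfr556*, 6.68 kb from *Trim68*, did not pass, with a log2 difference of -0.07 and a wide interval from -0.47 to 0.33. The study lists *Olfr556* as an atypical class I gene, found in the ventral MOE, and reports it unaltered in ΔJ mice. Beside the distal *Trim* genes *Olfr648* fell to 57.7% (limma adjusted p = 0.00131). *Olfr649*, 28.6 kb from *Trim6*, was at 70.2% (60.2% to 81.9%) with groups that did not overlap but an adjusted p of 0.156. *Olfr651*, 87.7 kb from *Trim30a*, and *Olfr652* were at 89.6% and 82.7% and did not pass (both adjusted p = 0.993). On the side of the distal *Trim* genes toward the element the groups of both receptors were thus separate, and on the far side the groups overlapped.

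**Figure D2:**
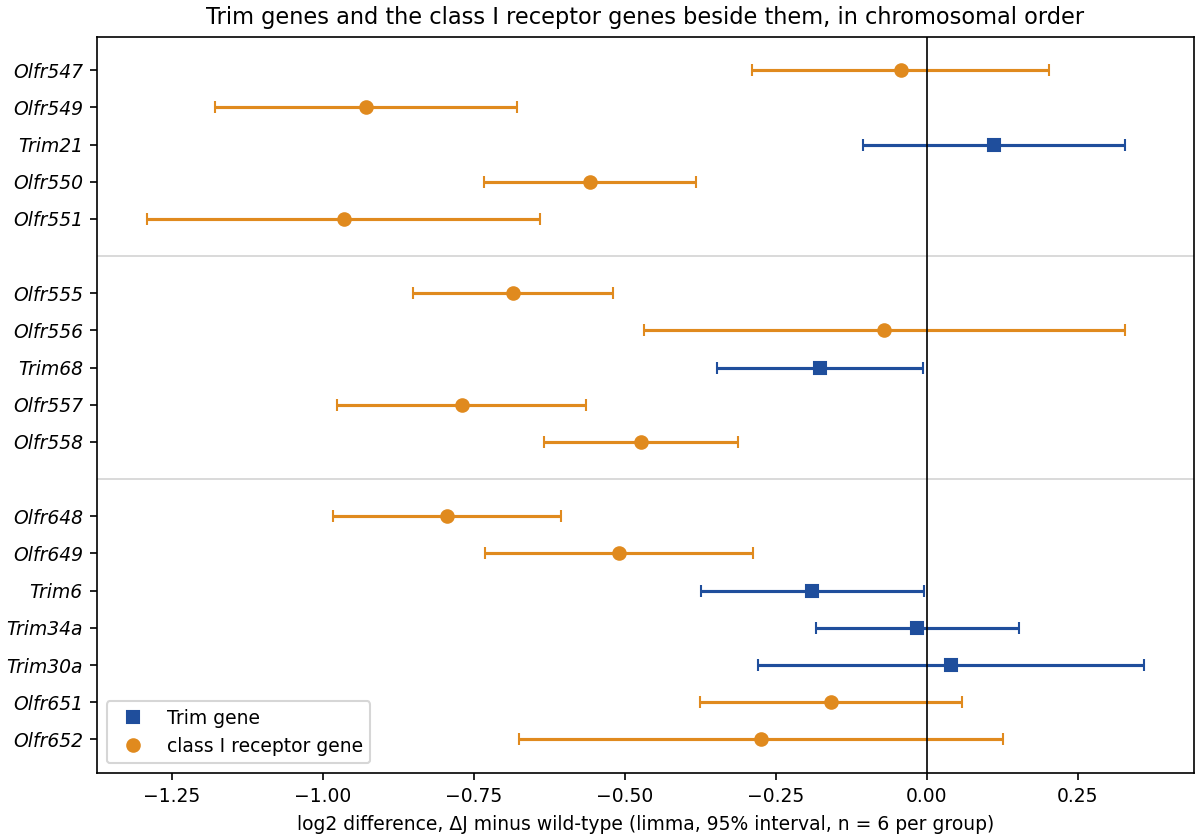
Log2 difference (ΔJ minus wild-type) with its 95% confidence interval from limma (n = 6 per group) for the *Trim* genes (blue squares) and the class I receptor genes beside them (orange circles), in 3 groups in chromosomal order. The *Trim* genes lie between -0.19 and 0.11 and the receptors between -0.97 and -0.04.

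Whether a *Trim* gene and its neighbours differed in their response was tested directly. For each mouse the level of the *Trim* gene was subtracted from the mean level of its 4 class I neighbours, and this gap was compared between genotypes by two-sided exact permutation of genotype among the 12 mice (924 ways), where the smallest possible p is 0.00216. Adjusted p-values are Benjamini-Hochberg values over these 5 comparisons. The neighbours and hence the outcome were not independent of earlier results, and 3 of the comparisons share the same 4 receptors.

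The gap for *Trim21* was -0.48 ± 0.15 in wild-type and -1.21 ± 0.24 in ΔJ mice, lower in all 6 ΔJ mice than in any wild-type mouse. It differed by -0.74 on the log2 scale (exact permutation p = 0.00216, adjusted 0.00541), with -0.57 within replicates 1 to 3 and -0.90 within replicates 4 to 6. For *Trim34a* the gap fell from 1.15 ± 0.18 to 0.73 ± 0.15, again below every wild-type mouse in 6 of 6, a difference of -0.42 (exact permutation p = 0.00216, adjusted 0.00541) that was -0.43 and -0.41 within the sets. These 2 genes had the smallest p that the test allows.

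The other 3 gaps were also more negative in ΔJ mice, with overlapping groups. For *Trim68* the difference was -0.32 (exact permutation p = 0.0130, adjusted 0.0189), and 4 of 6 ΔJ mice lay below every wild-type mouse. With only the nearest receptor on each side it was -0.24 (exact permutation p = 0.0931), where *Olfr556* makes up part of the pair. For *Trim30a* the difference was -0.47 (exact permutation p = 0.0152, adjusted 0.0189), with 4 of 6 ΔJ mice below. Without ΔJ replicate 4 it was -0.33 (exact permutation p = 0.0368). With all mice paired by replicate number the value stayed at -0.47, and an exact sign-flip permutation gave p = 0.0625. The smallest p that the sign-flip test allows is 0.03125. The labels do not give these numbers as pairs. For *Trim6*, the member with the most negative difference, it was -0.24 (exact permutation p and adjusted p 0.0325), with 3 of 6 below. It lost the threshold when any 1 of 5 mice was left out, namely wild-type replicates 1, 2 and 3 and ΔJ replicates 5 and 6, with p up to 0.0563. Since the signal of *Trim6* lay near the *Kdm5d* gauge, where a change can be understated, its gap does not separate a smaller response from a signal too dim to show one.

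With the nearest 4 receptors on each side the gaps of the distal genes shrank to -0.03 for *Trim6* (exact permutation p = 0.768), -0.20 for *Trim34a* (p = 0.0714) and -0.26 for *Trim30a* (p = 0.253). This wider set takes in *Olfr653*, a class I gene that was 0.64 higher in ΔJ mice. The contrast at the distal *Trim* genes thus depended on which receptors counted as neighbours. That of *Trim21* held its call with 1, 2 or 4 receptors on each side. Its widest set takes in *Olfr544* and *Olfr552*, whose expression the study reports as nearly lost in ΔJ mice. The gap difference of -1.27 with 4 thus reflects the receptors added, not a further property of *Trim21*.

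Sex and the set of arrays were examined for the same genes. In a fit with sex, *Trim68* was 0.15 and *Trim6* 0.16 higher in males than in females on the log2 scale (limma adjusted p = 0.610 and 0.611), and none of the 5 passed, as did 0.0141% of all probe sets. Between the sets of replicates 42.2% of all probe sets differed at an adjusted p under 0.05, among them *Trim34a*, lower by 0.16 in replicates 4 to 6 (limma adjusted p = 0.0476), and no other member. The genotype difference did not vary with the set beyond error in any of the 5, with adjusted p of 0.909 or more for the interaction, and no probe set on the array passed that test.

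The pathway in which these ligases work was read from lists of genes. Of 8 ubiquitin-conjugating enzymes that serve RING ligases 0 passed, with a median log2 difference of 0.02. *Ube2n*, which with its cofactor builds lysine-linked signalling chains, differed by -0.01 and *Ube2d1* by -0.06. Of 17 substrates and signalling partners of the 5 ligases 0 passed and 1, *Traf6*, a ubiquitin ligase of innate immune signalling, was lower at an unadjusted p of 0.0106 (log2 difference -0.20, limma adjusted p = 0.993). The median of these was -0.06. *Ikbke*, which encodes IKKε, differed by -0.03, and *Tab2* by -0.04.

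Of 40 interferon-stimulated genes 36 had a probe set with a single symbol, and *Isg15* was not among them. Between genotypes 0 of the 36 passed in limma, 1 was higher at an unadjusted p under 0.05 (*Xaf1*, 0.23) and 0 were lower, with a median of 0.07 that became -0.04 without ΔJ replicate 4. *Ifit1* and *Ifit3*, which encode RNA-binding antiviral proteins, differed by 0.03 and 0.53, *Irf7*, an interferon-induced transcription factor gene, by 0.17 and *Usp18*, which encodes a brake on interferon signalling, by 0.13. None of these 4 passed. Without ΔJ replicate 4 the differences were -0.07 for *Ifit1*, 0.28 for *Ifit3*, -0.06 for *Irf7* and -0.03 for *Usp18*, so that only the sign of *Ifit3* was kept.

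That mouse had the highest mean of the list. The mean of the list was -1.22 to -1.02 in wild-type mice, -1.28 to -0.94 in 5 ΔJ mice and -0.47 in ΔJ replicate 4. ΔJ replicate 4 was the highest of the 12 mice in 27 of the 36 genes, whereas it was the highest in 4.03% of all probe sets. No other mouse was the highest in more than 3 of these genes. Its level exceeded the median of the other mice by 1.71 for *Ifit3*, 1.44 for *Irf7*, 1.00 for *Usp18* and 0.55 for *Ifit1*. It was also the highest mouse in 5 of the 9 *Trim* genes of the cluster described here, among them *Trim21* and *Trim30a* but not *Trim68*, *Trim6* or *Trim34a*. Markers of immune cells, of which 12 of 14 were measured, were highest in the same mouse. Their mean was -0.43 there, against -1.04 to -0.67 in the rest of the ΔJ group and -1.04 to -0.69 in the wild-type group. Endothelial and blood markers averaged -0.33 in that mouse and at most -0.51 in any other.

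The members were then set against these lists across the 12 mice, as deviations from the mean of the genotype within each set of replicates, with exact permutation of pairings inside those strata (1296 pairings) and 18 relations in all, from 9 *Trim* genes and 2 lists. *Trim30a* followed the interferon-stimulated list with Pearson's r = 0.919 (exact permutation p = 0.0185, adjusted 0.111) and Spearman's rho = 0.832 (exact permutation p = 0.0262, adjusted 0.236). Leaving out the 2 mice whose deviations in the list lay farthest from the median deviation, ΔJ replicates 4 and 5, gave r = 0.746. The deviations were not centred again, so values without 2 mice still carry ΔJ replicate 4 through the mean of its group. Without ΔJ replicate 4 alone, with deviations taken anew, r was 0.640. Within the sets r was 0.530 and 0.959. *Trim21* followed it with r = 0.869 (exact permutation p = 0.0177, adjusted 0.111) and rho = 0.902 (exact permutation p = 0.00617, adjusted 0.111). There r was 0.956 without the 2 farthest mice, 0.671 without ΔJ replicate 4, and 0.933 and 0.864 within the sets. Neither relation passed after adjustment.

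For *Trim34a* r was 0.368 (exact permutation p = 0.0293, adjusted 0.132) and rho 0.559 (exact permutation p = 0.0617, adjusted 0.242), with r = 0.558 without the 2 farthest mice and 0.445 and 0.360 within the sets. *Trim68* had r = -0.23 (exact permutation p = 0.525, adjusted 0.644) and rho = -0.07 (exact permutation p and adjusted p 0.822). *Trim6* had r = 0.00831 (exact permutation p = 0.995, adjusted 0.995) and rho = 0.217 (exact permutation p = 0.536, adjusted 0.661). The value for *Trim6* turned to 0.676 without ΔJ replicate 4, so it rested on that mouse. The order of the members rested on it as well, since without that mouse r was 0.675 for *Trim34a*, 0.671 for *Trim21* and 0.640 for *Trim30a*. Among the other *Trim* genes with the promoter motif, r was 0.419 for *Trim12a*, 0.805 for *Trim12c* and 0.720 for *Trim30d*, and -0.20, 0.10 and 0.595 without ΔJ replicate 4 (exact permutation adjusted p with all mice 0.639, 0.307 and 0.111).

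The relation with immune markers passed for no member after adjustment. Pearson's r with the immune list was 0.807 for *Trim21* (exact permutation p = 0.0455, adjusted 0.164) and 0.783 for *Trim30a* (exact permutation p = 0.0556, adjusted 0.167), and Spearman's rho was 0.650 (exact permutation p = 0.0918, adjusted 0.268) and 0.629 (exact permutation p = 0.123, adjusted 0.278). Without the 2 mice of farthest deviation, here ΔJ replicates 4 and 6, and again not centred anew, r was 0.557 and 0.594. Without ΔJ replicate 4 alone, with deviations taken anew, it was 0.642 and 0.592. In replicates 4 to 6 r was 0.969 and 0.874, against -0.15 and 0.06 in replicates 1 to 3. The part of immune cells in the levels of *Trim21* and *Trim30a* was not tested.

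**Figure D3:**
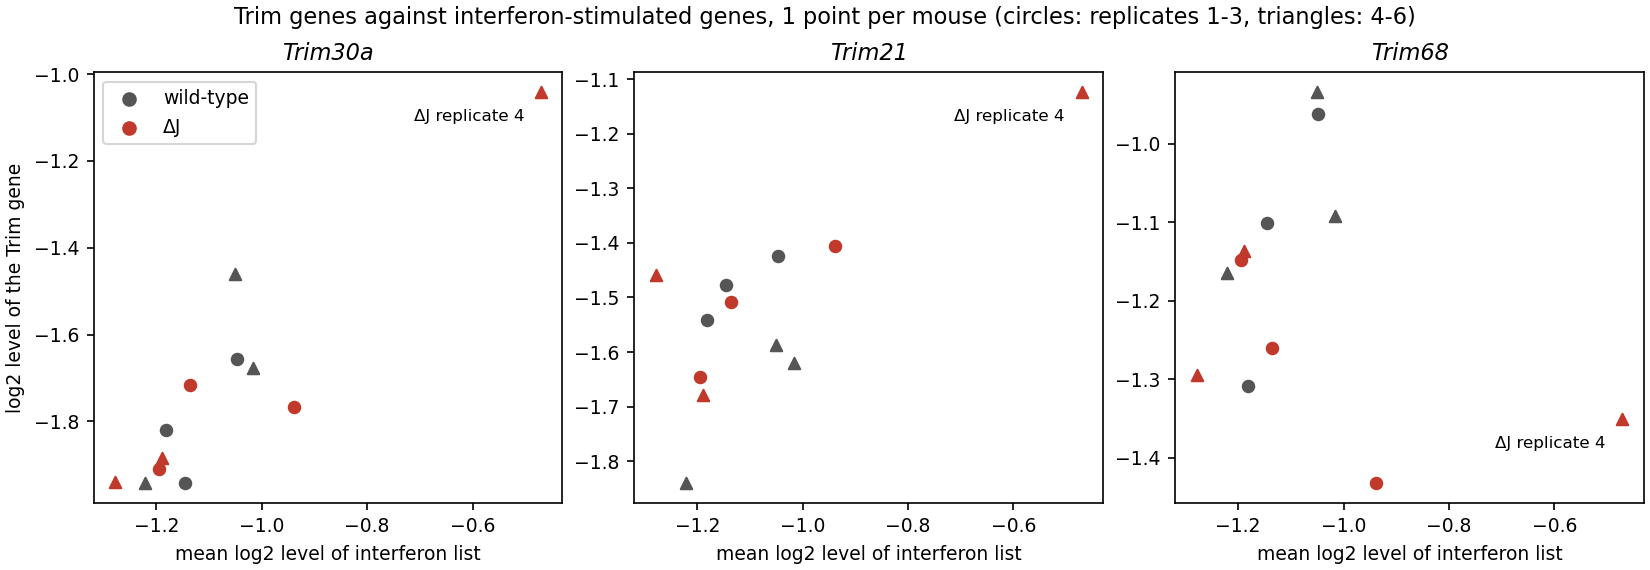
Log2 level of *Trim30a*, *Trim21* and *Trim68* (vertical axes) against the mean log2 level of 36 interferon-stimulated genes (horizontal axes), 1 point per mouse, wild-type in grey and ΔJ in red, with circles for replicates 1 to 3 and triangles for replicates 4 to 6. ΔJ replicate 4, at -0.47 on the horizontal axes, is the highest mouse for *Trim30a* and *Trim21* but not for *Trim68*.

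Among themselves the members varied in different ways. *Trim21* and *Trim30a* had r = 0.862 over the 12 mice, and 0.634 without ΔJ replicate 4. *Trim68* and *Trim6* had r = 0.512, and the remaining pairs lay between -0.23 and 0.450. These values are descriptions, since all genes of a mouse share its array.

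Among 20753 probe sets that measure 1 gene other than an OR, those most like *Trim30a* in the same deviations were *Ly86* (r = 0.973), *Ptprc* (0.972), which encodes the leukocyte surface protein CD45, and *Nckap1l* (0.963). Those most like *Trim21* were *Chil4* (0.971), a gene of the chitinase-like proteins, *AW112010* (0.949) and *Tnfrsf14* (0.937). *Trim68* was most like *Bcl2l14* (0.971), *Abhd4* (0.948) and *Rnasek* (0.948). *Trim6* was most like *Vsig10l* (0.975), *Gm9899* (0.969) and *Scn2a* (0.966), and *Trim34a* like *Albfm1* (0.924), *Slc35d3* (0.922) and *Phf20* (0.907). Each is the highest of many coefficients over 12 mice and carries no test. Genotype differences of all 15 were between -0.18 and 0.22 on the log2 scale, and none passed in limma.

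Markers of the cells of the tissue did not pass in any list. Of 10 mature OSN markers 6 were lower and 4 higher in value, with a median of -0.02, and *Omp* and *Cnga2* among them differed by 0.04 and 0.06. *Gap43* and *Gng8* of immature OSNs differed by 0.18 and -0.14, *Krt5* and *Trp63* of basal cells by -0.02 and -0.20, and *Cyp2g1* and *Ermn* of sustentacular cells by -0.01 and -0.02. *Ptprc* and *Csf1r* of leukocytes both differed by 0.09, *Pecam1* of endothelium by -0.08, and *Th* and *Mbp* of olfactory bulb and glia by 0.15 and 0.12. List medians ran from -0.05 for immature OSNs to 0.10 for olfactory bulb and glia, where all 5 measured markers were positive.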

How the data were processed

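MOE RNA of 6 ΔJ and 6 wild-type mice was measured on 12 arrays, grouped by the labels of the samples. The values that the authors deposited, for 35556 probe sets, are log2 signals from Affymetrix Expression Console per the submitters' processing notes. Its version and settings were not given in the sources read. As in the study's methods, each array's 75th percentile was subtracted and a moderated test with genotype alone was run, here in limma 3.58.1 under R 4.3.3 (lmFit, eBayes), on every probe set without a filter and with Benjamini-Hochberg adjustment over all of them. The code was tested on simulated data. The platform annotation gave 1 symbol to 21789 probe sets, several to 1621 and none to 12146. *Trim34a* is annotated through an accession. No arrays were identical, and 12 of 12 matched the labelled sex. Arrays give no counts, so their number limits the precision. The p-values rest on differences between mice and do not cover variation between lines or litters.

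Members and lists were chosen with earlier results of these data known. Genes named are the members, the other *Trim* genes of the cluster, the nearest 2 class I probe sets on each side, the first 6 interferon-stimulated genes and the first 2 of each other list, and the 3 most alike genes. *Trim36*, *Trim50*, *Xaf1*, *Traf6*, *Olfr653* and *Kdm5d* were named after their values were seen. Same-numbered mice of both genotypes deviated together from the means of their genotypes (r = 0.185 to 0.441 over probe sets). The set of replicates was left in these deviations, and mice of different numbers were not compared. These r values thus do not show that the numbers mark pairs. A fit with the replicate as a block took the numbers as pairs. Other settings changed the scaling, filter, covariates, variance model, mice and neighbours. The correlations without ΔJ replicate 4 were added after the data were seen. Which OR probe sets are class I, and their positions, came from the study's own list of OR probe sets, without its values. Coordinates of the *Trim* genes and promoters are from RefSeq (GRCm38.p6). Permutations used Python 3.11.15.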

Additional observations from a re-analysis of the deposited data

Results flagged for a closer look

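In 44 groups of 6 mice, made of the members, the other *Trim* genes of the cluster, the class I neighbours and the mean of the interferon-stimulated list in each genotype, 5 had a mouse that stood apart from the other 5 (gap to the nearest mouse over the range, Dixon's test). Chance alone marks about 1 group in 20. *Trim30a* was highest in ΔJ replicate 4 at -1.04, with the next mouse at -1.72 (gap over range 0.751), the mouse that was also highest in most interferon-stimulated genes. *Trim34a* was lowest in wild-type replicate 4 at -2.27, with the next at -1.998 (0.743). *Olfr557* was highest in wild-type replicate 3 at -1.30, with the next at -1.64 (0.657). *Olfr649* was highest in wild-type replicate 3 at -0.68, with the next at -0.997 (0.748), and lowest in ΔJ replicate 5 at -1.89, with the next at -1.53 (0.638). The mean of the interferon-stimulated list was marked in neither genotype.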

How the results depend on the processing

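None of the 5 *Trim* genes passed under any of the 24 alternatives run, with limma adjusted p from 0.617 upward, and *Trim68* and *Trim6* kept their negative sign in all. *Trim6* is dim and dropped out when the dimmest probe sets were removed. *Trim21* turned to -0.039 within replicates 1 to 3. *Trim34a* turned to 0.027 with the median subtracted, 0.031 with quantile normalization, 0.024 in P30 mice and 0.022 within replicates 1 to 3. Leaving out 1 mouse at a time gave -0.067 to 0.0080 for *Trim34a* and -0.094 to 0.097 for *Trim30a*. Of 12 class I neighbours the number called was 3 in P30 mice, 0 within replicates 1 to 3 and 0 within replicates 4 to 6. The share of all probe sets called in these smaller fits is not given here, so these counts do not show that the fall was absent. Neighbours whose groups did not overlap over all mice did not overlap within either set of replicates. The number called was 4 to 7 with 1 mouse left out, with 4 without wild-type replicate 1 or 3, and 8 when OR probe sets alone were fitted. For the gap between neighbours and *Trim* gene, the nearest receptor on each side gave -0.24 for *Trim68*, -0.14 for *Trim6* and -0.37 for *Trim30a*, none of which passed the exact permutation test. The nearest 4 gave -0.031, -0.20 and -0.26 for *Trim6*, *Trim34a* and *Trim30a*, and 1 mouse left out gave -0.29 to -0.20 for *Trim6*. The replicate block left *Trim30a* at -0.47 without passing and changed no other gap's call. Its sign-flip p-values were not adjusted, and every other gap sat at 0.03125, the smallest p that this test allows. In the block fit 0 members and 6 neighbours were called, and 51 probe sets against 48. The cause of these shifts was not tested. With 3 mice per group the exact test cannot go below 0.1.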
